A study of Mus musculus with 48 samples.

Results

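Transcripts of 9 complement genes were described in the lungs of 48 adult mice: C1qa, C1qb, C1qc, C2, C3, C4b, Cfb, Serping1 and C5ar1. They were taken by symbol, as the 9 rows so named among 47561 genes, and all 9 were above the filter on low values in every comparison. The mice came from 2 inbred strains, C3H/HeN (C3H) and C57Bl/6 (C57B), whose substrain the sources name differently, and from both sexes, giving the groups C3HM, C3HF, C57BM and C57BF. In each of these, 6 mice received an intraperitoneal injection of saline and 6 received aurothioglucose (ATG) at 25 mg/kg, an inhibitor of thioredoxin reductase that contains gold. Of each 6, 3 stayed in room air and 3 breathed more than 95% oxygen for 96 h (hyperoxia), so that 16 groups held 3 mice each and every library came from 1 mouse. RNA from lung was sequenced, and levels are given as FPKM, in which the fragments of a gene are divided by transcript length and by library total, so that they can be compared between genes.

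Complement is a cascade of plasma and tissue proteins that tags particles and cells for removal and recruits leukocytes. In the classical pathway C1q, built from the chains encoded by C1qa, C1qb and C1qc, binds immune complexes and dying cells, after which C4 and C2 are cleaved to form an enzyme that splits C3. Factor B, the product of Cfb, forms the corresponding enzyme of the alternative pathway together with C3 itself. C1 inhibitor, encoded by Serping1, blocks the first proteases of the classical pathway, and C5ar1 is the receptor for the fragment C5a on neutrophils and macrophages. Liver makes most of the C3 and C4 in plasma, whereas C1q comes largely from macrophages, and lung cells make several components locally.

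All 9 are protein-coding genes on the minus strand of the mouse genome (GRCm38, mm10, annotation GENCODE M21). The 3 C1q genes stood next to each other, C1qb at chr4:136880129-136886187, C1qc at chr4:136889804-136893065 and C1qa at chr4:136895917-136898803. In the major histocompatibility complex (MHC), C4b lay at chr17:34728380-34743882, Cfb at chr17:34856374-34862518 and C2 at chr17:34862604-34898265, with 85 bases between Cfb and C2. C3 lay on the same chromosome outside the MHC at chr17:57203970-57228136, Serping1 at chr2:84765387-84775444 and C5ar1 at chr7:16246743-16259540. C4b has a close copy in C4a, and its coding exons matched C4a at 96.3% of 4685 compared bases. A transcript annotated as Gm20547 runs through both Cfb and C2 and holds 76.4% of the 30-base words of Cfb and 53.3% of those of C2. It was listed at 0.814 FPKM at most. None of the 30-base words of the C1q genes, C3, Serping1 or C5ar1 occurred in another annotated gene, whereas 49.7% of those of C4b occurred in C4a, so that part of the C4b signal could have been divided between the copies when reads were assigned.

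The stretch of 90 coding bases in which C4b and C4a differed most is shown because it is where reads of the copies could best be told apart. It lies in exon 21, at chr17:34735430-34735519 for C4b and chr17:34816086-34816175 for C4a, both on the minus strand, with the 14 mismatched bases in capitals.
C4b: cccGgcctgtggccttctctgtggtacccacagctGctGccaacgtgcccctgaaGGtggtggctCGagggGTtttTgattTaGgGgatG
C4a: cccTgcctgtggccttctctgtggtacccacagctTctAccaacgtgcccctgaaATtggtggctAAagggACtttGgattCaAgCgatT

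Promoter sequences from RefSeq (GRCm38.p6) were at hand for C1qb, C1qc, C3 and C5ar1. The 250 bases before the RefSeq start are shown for C1qb and C1qc, neighbours whose levels moved together, and for C3, which differed in its course (chr4:136886201-136886450, chr4:136892915-136893164 and chr17:57228137-57228386, all minus strand). For C1qc the RefSeq start lies inside the GENCODE gene, so the part at chr4:136892915-136893065 is within the gene as given above. Capitals mark matches on either strand to GAGGAA, a site of the ETS factor PU.1, and to TTGCNNAA, the C/EBP half-sites. The shorter GGAA core of ETS factors was not searched for and is not marked.
C1qb: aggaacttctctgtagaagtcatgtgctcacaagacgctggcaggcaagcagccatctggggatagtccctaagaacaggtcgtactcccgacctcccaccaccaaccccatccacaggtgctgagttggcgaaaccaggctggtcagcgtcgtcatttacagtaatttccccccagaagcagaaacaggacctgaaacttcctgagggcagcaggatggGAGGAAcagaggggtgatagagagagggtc
C1qc: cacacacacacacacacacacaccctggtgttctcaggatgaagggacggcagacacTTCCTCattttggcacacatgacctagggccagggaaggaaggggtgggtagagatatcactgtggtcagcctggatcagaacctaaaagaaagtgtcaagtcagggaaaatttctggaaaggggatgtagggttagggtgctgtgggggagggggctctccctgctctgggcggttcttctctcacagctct
C3: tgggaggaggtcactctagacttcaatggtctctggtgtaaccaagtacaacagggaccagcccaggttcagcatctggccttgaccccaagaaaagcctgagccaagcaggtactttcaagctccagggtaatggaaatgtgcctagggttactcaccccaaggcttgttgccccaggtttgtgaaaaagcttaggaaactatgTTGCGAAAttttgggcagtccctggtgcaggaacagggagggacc
Positions are counted from the RefSeq start. GAGGAA occurred 1 time before C1qb, from base -30 to -25, and 1 time on the other strand before C1qc, from -193 to -188. TTGCNNAA occurred 1 time before C3, from -45 to -38. The search took in 250 bases before the start and 50 after it, more than is shown. Of 32851 mouse promoters searched in this way, 28.3% held GAGGAA and 10.8% held TTGCNNAA. No match to TTCNNNGAA (the GAS element), the ISRE, TGANTCA (AP-1) or the kB site was found in any of the 4, and these motifs occurred in 8.3%, 3.44%, 7.81% and 0.411% of all promoters.

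Levels differed widely between the 9 genes. Over the 48 mice Serping1 had a median of 172 FPKM (96.4 to 230.0) and C3 a median of 162 FPKM (77.3 to 349). The C1q chains followed, with C1qa at 60.2 FPKM (31.7 to 109), C1qb at 38.2 (9.81 to 95.6) and C1qc at 30.2 (14.7 to 73.2). Cfb stood at 30.3 FPKM (10.7 to 140.4), C2 at 20.4 (9.69 to 40.1), C4b at 16.2 (0.646 to 90.4) and C5ar1 at 7.16 (2.79 to 33.6). The ranges of neighbours in this order overlapped in every case. As highest over lowest, the range was widest for C4b (139.9-fold), whose mice fell into separate sets by strain.

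Markers of lung cells were present in all groups, with the summed FPKM of 6 markers of type 2 cells, led by Sftpc, averaging 9374 to 40910 over the 6 mice of each strain, injection and air. Those of hepatocytes, the main source of plasma complement, summed to 22.6 FPKM at most, led by Alb. In bulk lung RNA, fewer cells of a type and less RNA per cell cannot be told apart. Among the saline C3HM mice in room air, mice 1 and 3 stood apart in scale, with median-ratio factors of 0.786 and 0.819. Rn18s, the 18S ribosomal RNA, was listed at 25895 and 20766 FPKM in them and at 22813 in mouse 4, a C3HM mouse with ATG in room air, against 2651 to 11999 in the other 45 mice. In saline mice its median was 8690.15 FPKM in C3H and 6880.4 in C57B in room air (5325 in C3H without mice 1 and 3), and 7232 and 4534 in hyperoxia. The part of this RNA in the comparisons was not tested, and values without mice 1 and 3 are also given for the strains, the C1q ratios and hyperoxia. Fits without them held 1 saline C3HM mouse in room air, mouse 2, and rest on it for that group.

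**Figure D1:**
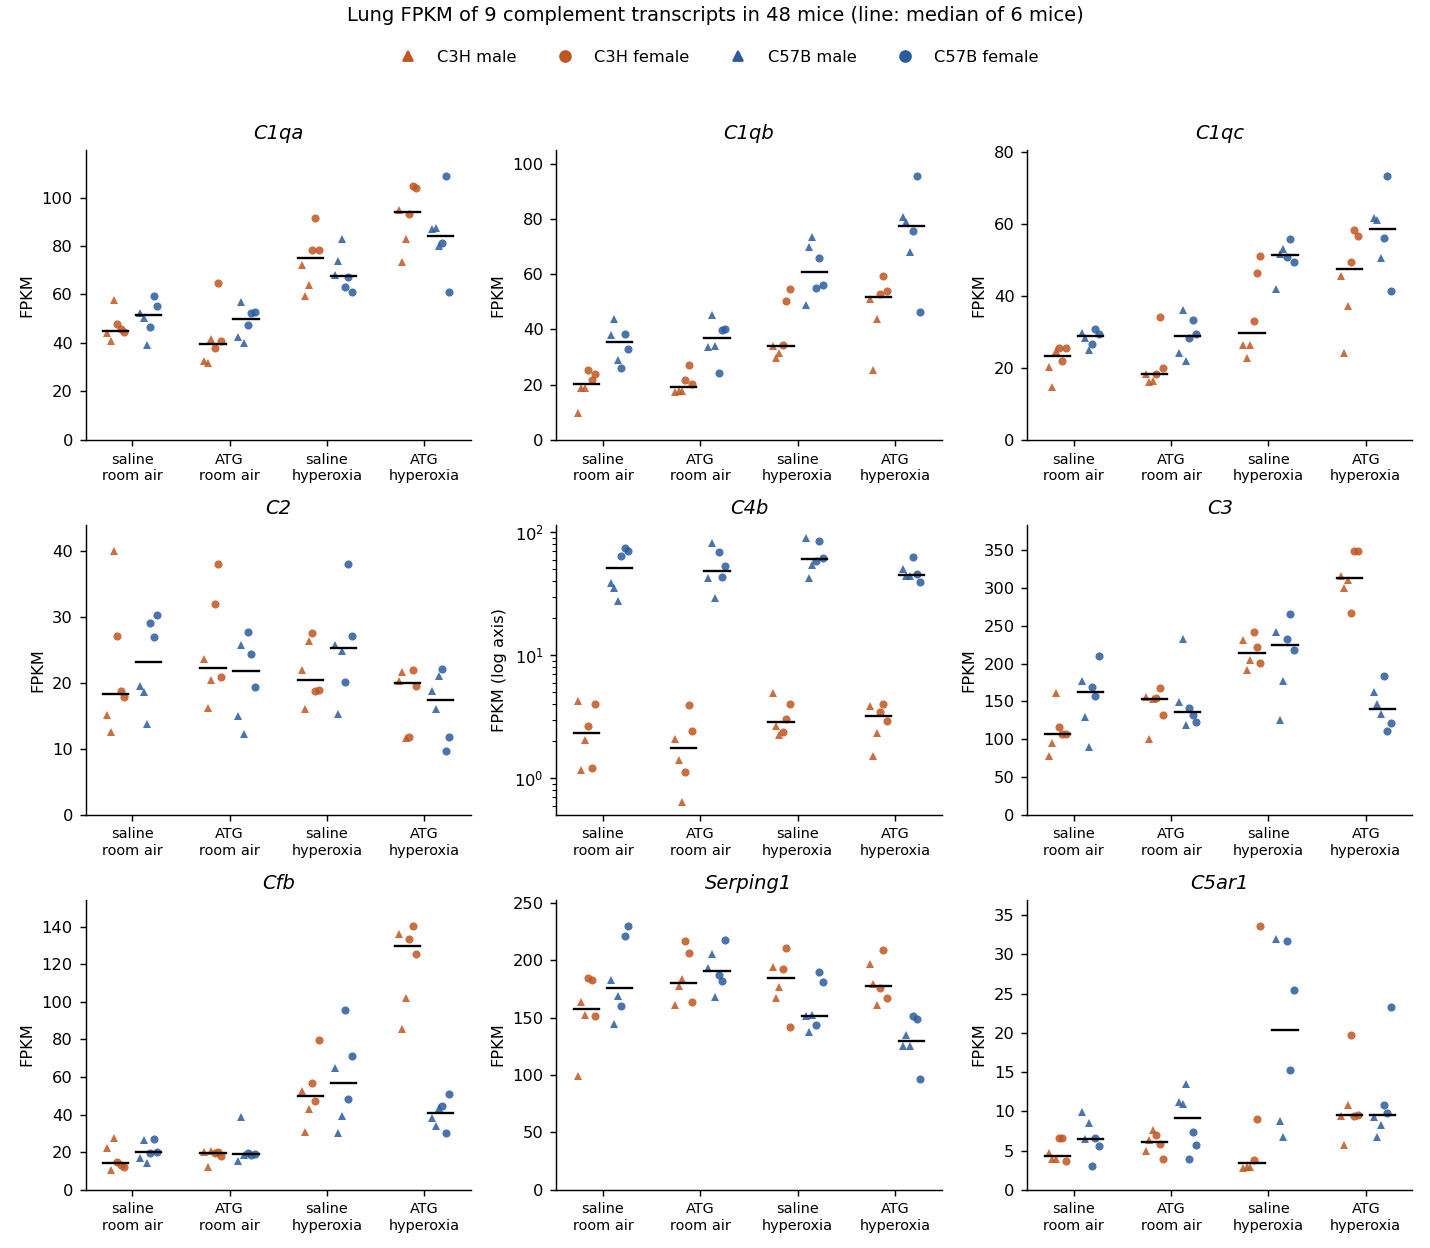
FPKM of each of the 9 complement transcripts (one panel each, C4b on a log axis) in 48 mice, by injection and air along the horizontal axis. Points are single mice, coloured by strain with triangles for males and circles for females, and lines are medians of 6 mice. C3H mice lie at 4.91 FPKM or less for C4b and C57B mice at 27.6 or more, and Cfb in C3H mice with ATG in hyperoxia reaches 140.4.

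The strains were first compared in the 12 saline mice in room air, which had neither ATG nor hyperoxia. C4b and C1qb were lower in C3H, and no member was higher. These were 2 of 9 members, and 11.8% of the 15546 genes tested differed in either direction and 7.87% were lower in C3H (limma on log2(FPKM + 1), Benjamini-Hochberg adjusted p under 0.05 here and throughout). C4b supplies the C4 that C2 joins in the classical enzyme. The C3HM mice had 4.27, 1.17 and 2.04 FPKM of C4b and the C3HF mice 2.66, 1.21 and 4.02. In C57BM mice the values were 39.1, 35.5 and 27.6 FPKM, and in C57BF mice 64.3, 75.0 and 70.5. No C3H mouse came near the lowest C57B mouse. C4b was 14.8-fold lower in C3H on the log2(FPKM + 1) scale, which understates changes at low levels (log2 -3.89, SE 0.23, adjusted p = 4.78e-07).

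C1qb, one of the C1q chains, showed a smaller difference. C3HM mice had 9.81, 18.8 and 18.7 FPKM and C3HF mice 25.4, 21.6 and 24.0. C57BM mice had 37.9, 43.7 and 29.1 FPKM and C57BF mice 25.9, 38.4 and 33.0. The strains did not overlap, although the highest C3H mouse and the lowest C57B mouse lay close together. C1qb was 1.76-fold lower in C3H (log2 -0.82, SE 0.17, adjusted p = 0.00843), and an exact two-sided permutation test of the FPKM of 6 against 6 mice gave p = 0.00216 for C1qb and for C4b, the smallest it allows.

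For the other chains, C1qc averaged 22.1 ± 4.19 FPKM in C3H and 28.3 ± 2.13 in C57B (SD, n = 6; log2 -0.36, SE 0.12, adjusted p = 0.0718). C1qa averaged 46.8 ± 5.90 and 50.6 ± 6.96 FPKM (log2 -0.11, 95% interval -0.35 to 0.14). The remaining 5 members did not pass the threshold, and C3, the central component, averaged 111 ± 28.3 FPKM in C3H and 155 ± 41.5 in C57B (adjusted p = 0.144). Without mice 1 and 3, mouse 2 was the only C3HM mouse left, and the differences were log2 -0.55 for C1qc and -0.71 for Cfb. Mouse 2 had the lowest C1qc (14.7 FPKM) and the lowest Cfb (10.7) of all 48 mice. With mouse 2 alone left out, C1qc was at log2 -0.27. Over the alternatives, 1349 to 2982 genes in total were called in either direction. Markers of cell types also differed in these 12 mice, with 5 of 9 neutrophil markers, 4 of 6 of type 2 cells and 3 of 10 of macrophages and monocytes lower in C3H, 1 of these 10 higher, and 4 of 5 of type 1 cells higher. The part of these cells in the strain differences was not tested. Among all genes called, 33.2% were higher in C3H, and this share was 48.3% after median-ratio scaling and 51.2% after quantile normalization.

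The other 36 mice, in the remaining treatment groups, gave the same comparison in libraries separate from the first 12. There 7 of 9 members differed between strains, as did 41.3% of 16578 genes tested (21.6% higher and 19.7% lower in C3H). C4b was lower in C3H (2.72 ± 1.15 against 55.5 ± 16.9 FPKM, n = 18; log2 -3.94, adjusted p = 1.35e-19), again with no overlap. C1qb (log2 -0.70, adjusted p = 8.23e-07), C1qc (log2 -0.49, adjusted p = 6.28e-05) and C5ar1 (log2 -0.63, adjusted p = 0.0133) were also lower in C3H. C3 (log2 0.40, adjusted p = 0.00054), Cfb (log2 0.42, adjusted p = 0.00668) and Serping1 (log2 0.20, adjusted p = 0.0111) were higher in C3H. C1qa (log2 -0.01) and C2 (log2 0.07) did not pass. Within the 8 combinations of sex, injection and air, all 3 C3H mice were below all 3 C57B mice for C4b in 8, for C1qb in 6 and for C1qc in 5. For C3 and Cfb all 3 C3H mice were above all 3 C57B mice in 2 of the 8 and below them in 1, and for Serping1 above them in 3. In saline mice in hyperoxia C3 was at 215 ± 19.4 FPKM in C3H and 210 ± 50.5 in C57B, and Cfb at 51.6 ± 16.4 and 58.3 ± 23.8 (SD, n = 6). Serping1 was at 180 ± 24.3 and 159 ± 21.0 there. In ATG mice in room air the C3H means were not higher. C3 averaged 144 FPKM in C3H and 149 in C57B, Cfb 18.3 and 21.6, and Serping1 185 and 192.

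Over all 48 mice C4b had a median of 2.55 FPKM in 24 C3H mice (0.646 to 4.91) and 51.9 in 24 C57B mice (27.6 to 90.4), and the ratio of the means was 20.4. C3H mice carry the k haplotype of the MHC, known for low C4 in serum. C4a, the copy that shares sequence with C4b, had a median of 0.435 FPKM in C3H and 2.55 in C57B, with a ratio of means of 6.03. The genome build named for the processing, mm10, is that of C57BL/6J, and the part that C3H sequence differences play in mapping was not tested.

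The chains of C1q are joined in equal numbers in the protein, so their transcripts were also compared as ratios within each mouse. The ratio of C1qb to C1qa was 0.425 ± 0.126 in saline C3H mice in room air and 0.688 ± 0.113 in C57B mice (SD, n = 6; exact permutation p = 0.00216). The C3H values (0.222 to 0.541) lay wholly below the C57B values (0.554 to 0.868). Without mice 1 and 3 the C3H ratio was 0.502 ± 0.0411 (n = 4; exact permutation p = 0.00952, the smallest it allows). In the other 36 mice the ratio was 0.512 ± 0.0771 in C3H and 0.836 ± 0.110 in C57B (n = 18; permutation p = 2e-05, the smallest that 100000 resamples can give). The ratio of C1qc to C1qa differed in the same direction, 0.472 ± 0.0771 against 0.564 ± 0.0410 in the first 12 mice (exact permutation p = 0.0346, and 0.152 without mice 1 and 3) and 0.477 ± 0.0826 against 0.668 ± 0.0833 in the other 36 (permutation p = 2e-05). Between hyperoxia and room air in saline mice of both strains together these ratios did not pass. C1qb to C1qa averaged 0.706 ± 0.209 in hyperoxia and 0.557 ± 0.179 in room air (n = 12; permutation p = 0.0752). C1qc to C1qa averaged 0.595 ± 0.174 and 0.518 ± 0.0759 (permutation p = 0.173). The spread within each air includes the strain difference, so these tests cannot decide a change within strain, which was not tested. After Benjamini-Hochberg adjustment over the 12 ratio comparisons made, C1qb to C1qa between strains had 0.00518 in the first 12 mice and 6e-05 in the other 36, and C1qc to C1qa had 0.0593 and 6e-05.

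By sex, none of 9 members passed in the 12 saline mice in room air, where 0.669% of genes did, and 2 members, C4b and Serping1, had an unadjusted p under 0.05. In C57B the males, at 27.6 to 39.1 FPKM of C4b, lay below the females, at 64.3 to 75.0, whereas the sexes overlapped in C3H (log2 -0.55 over both strains, adjusted p = 0.189). Serping1 averaged 152 ± 28.9 FPKM in males and 188 ± 31.7 in females (log2 -0.32, 95% interval -0.63 to -0.01, adjusted p = 0.205). In the other 36 mice, where 3.7% of genes differed by sex and 1.65% were lower in males, C1qc was lower in males (log2 -0.34, adjusted p = 0.0293), and this call was lost without mouse 18 (adjusted p = 0.0506) or mouse 24 (0.053). The interaction of strain and sex passed for none of 9 members and for 0% of genes, with 2538 of the 15546 genes and 2 members, C1qb and C5ar1, at an unadjusted p under 0.05 in limma, the one tool run.

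Hyperoxia was compared with room air in the 24 saline mice. Cfb, C1qa, C1qb, C1qc, C3 and C5ar1 rose and none fell. These 6 of 9 members stood beside 60.1% of 16321 genes called in either direction and 31.8% called higher, and the median log2 change was 0.69 over the members and 0.01 over all genes. Cfb, the protease subunit of the alternative pathway enzyme, rose most. In room air its FPKM was 22.3, 10.7 and 27.6 in C3HM, 14.9, 13.4 and 12.0 in C3HF, 17.1, 26.4 and 14.0 in C57BM, and 19.7, 26.9 and 20.1 in C57BF. In hyperoxia the values were 52.5, 30.6 and 43.2, then 56.6, 47.2 and 79.6, then 64.8, 30.2 and 39.5, and 95.7, 48.4 and 70.9 in the same order. Every mouse in hyperoxia was above every mouse in room air. The change was 2.80-fold (54.9 ± 19.8 against 18.8 ± 6.01 FPKM, SD, n = 12; log2 1.48, SE 0.17, adjusted p = 2.2e-07).

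C3, which factor B joins, rose 1.64-fold (213 ± 36.6 against 133 ± 41.0 FPKM; log2 0.71, SE 0.13, adjusted p = 5.74e-05), and 7 of the 12 mice in hyperoxia were above all in room air. The C1q chains rose together. C1qa went from a median of 45.0 FPKM (40.8 to 57.9) to 75.2 (59.5 to 91.4) in C3H and from 51.4 (39.4 to 59.3) to 67.6 (61.1 to 82.8) in C57B, with no overlap in either strain (log2 0.55, SE 0.07, adjusted p = 1.05e-06). C1qb went from a median of 20.2 to 34.1 FPKM in C3H and from 35.5 to 60.9 in C57B (log2 0.89, SE 0.11, adjusted p = 1.11e-06). C1qc went from 23.2 to 29.7 and from 28.8 to 51.2 FPKM (log2 0.69, SE 0.08, adjusted p = 5.43e-07).

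C2, Serping1 and C4b did not pass. C2, which stands 85 bases from Cfb, averaged 23.4 ± 6.28 FPKM in hyperoxia and 22.5 ± 8.23 in room air (log2 0.09, 95% interval -0.25 to 0.43), and the ratio of Cfb to C2 rose from 0.883 ± 0.299 to 2.45 ± 1.04 (permutation p = 2e-05, the smallest that 100000 resamples can give, adjusted over the ratio comparisons 6e-05). Serping1 averaged 170 ± 24.3 and 170 ± 34.7 FPKM (log2 0.01, 95% interval -0.18 to 0.21). For C4b the change was 0.34 (log2, SE 0.16, adjusted p = 0.0841), and it passed when mouse 1, 20 or 27 alone was left out. The fit without mice 1 and 3 rested on 1 C3HM mouse in room air, so its call is not given. FPKM are shares of a total, and the share held by Scgb1a1, the secretoglobin of club cells, fell from a median of 18.1% (10.4 to 30.2) in the 24 mice in room air to 4.61% (1.2 to 7.17) in the 24 in hyperoxia. The 6 calls also passed after quantile normalization and after median-ratio scaling, which do not rest on that total.

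C5ar1 varied widely between mice in hyperoxia. In C3H saline mice it was 2.79, 2.87 and 2.93 FPKM in males and 3.77, 9.04 and 33.6 in females, against 3.67 to 6.58 in room air. In C57B saline mice it was 32.0, 8.71 and 6.75 FPKM in males and 31.8, 15.3 and 25.5 in females, against 3.00 to 9.86 in room air. The groups overlapped, and 3 C3HM mice in hyperoxia were below every mouse in room air. The average change was 1.70-fold (log2 0.77, SE 0.27, adjusted p = 0.0177), with 1.31 in C57B (adjusted p = 0.00613) and 0.23 in C3H (adjusted p = 0.672), and the difference between strains did not pass (log2 -1.08, 95% interval -2.19 to 0.04, adjusted p = 0.192). Without mouse 33, the C3H female with 33.6 FPKM, the average was 0.57, so the positive estimate in C3H rested on that mouse.

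Fitted within strain, 5 members rose in C3H (Cfb, C3, C1qa, C1qb and C1qc), where 37.8% of genes changed and 25.3% rose, and 6 in C57B, where 55.5% changed and 25.5% rose. C3 rose by 0.99 in C3H (log2, adjusted p = 0.000213) and by 0.44 in C57B (adjusted p = 0.0389). The call in C57B was lost in 8 of 24 fits that left out 1 mouse (adjusted p up to 0.129) and kept in 6 of 9 alternatives, where the change was 0.18 to 0.48. The interaction of strain and hyperoxia in saline mice passed for none of 9 members and for 11.5% of genes, and C3 (log2 0.54, adjusted p = 0.161) and Serping1 (log2 0.43, adjusted p = 0.135) were the 2 members with an unadjusted p under 0.05 in limma. Without mice 1 and 3, which left 1 C3HM mouse in room air, the estimates of the 5 members called in C3H stayed positive. Over the alternatives, the genes called in either direction ran from 4180 to 6993 in C3H and from 1358 to 2994 for the interaction. The interaction of sex and hyperoxia also passed for none of 9 members and for 0.0368% of genes, with Cfb and C5ar1 at an unadjusted p under 0.05. The estimate for C5ar1 was -1.39 (log2, males minus females, adjusted p = 0.201), and without mouse 19, the C57BM mouse with 32.0 FPKM, it was -1.71 (adjusted p = 0.0393). Without mouse 33, the C3HF mouse with 33.6 FPKM, it was -1.003 (adjusted p = 0.305).

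**Figure D2:**
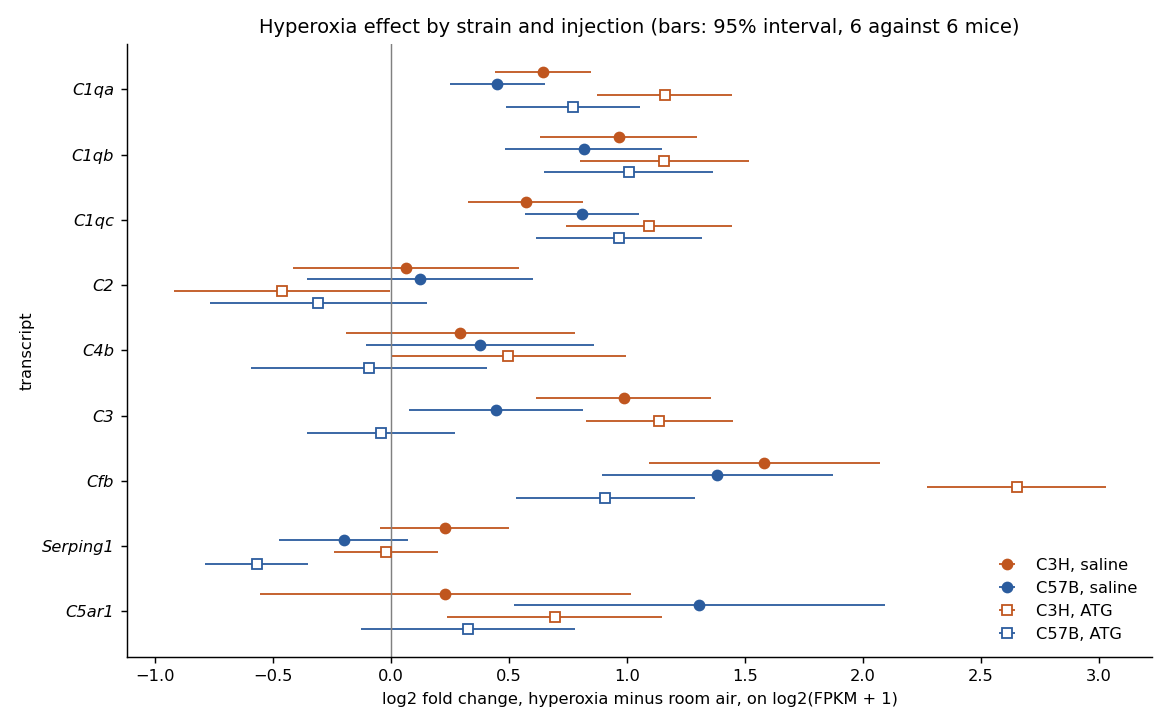
Log2 fold change from room air to hyperoxia on log2(FPKM + 1) for each of the 9 transcripts, in 4 sets of 6 against 6 mice by strain (colour) and injection (filled for saline, open for ATG), with 95% intervals. The 3 C1q chains lie to the right of 0 in all 4 sets, whereas Cfb reaches 2.65 in C3H with ATG and 0.91 in C57B with ATG.

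The same comparison in the 24 ATG mice, which shared no animal with the saline mice, also had 6 members higher, beside 61.8% of genes called in either direction, 35.8% higher and 26% lower. Cfb (log2 1.78, adjusted p = 2.28e-10), C1qb (1.08, adjusted p = 1.58e-07), C1qc (1.03, adjusted p = 2.33e-07), C1qa (0.97, adjusted p = 3.02e-08), C3 (0.55, adjusted p = 0.000139) and C5ar1 (0.51, adjusted p = 0.00704) rose. Serping1 (log2 -0.29, adjusted p = 0.00176) and C2 (log2 -0.39, adjusted p = 0.0371) fell, and the call for C2 was lost in 12 of 24 fits that left out 1 mouse. After quantile normalization the changes were -0.56 for Serping1 and 0.31 for C3, and both still passed. Within strain, 6 members rose in C3H, where 47.9% of genes changed and 30.4% rose, and C5ar1 among them did not pass with all 48 mice in 1 fit (adjusted p = 0.0782). In C57B 4 rose and 1 fell, where 56.2% of genes changed, 30.7% higher and 25.4% lower. Serping1, the C1 inhibitor, fell in C57B from 192 ± 17.5 to 130 ± 20.0 FPKM (SD, n = 6) with no overlap (log2 -0.57, adjusted p = 0.000117), and was 185 ± 22.7 and 182 ± 18.2 FPKM in C3H (log2 -0.02, 95% interval -0.24 to 0.20). C3 changed by 1.14 in C3H (log2, adjusted p = 2.95e-06) and by -0.04 in C57B (95% interval -0.35 to 0.27).

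The effect of ATG itself was compared within each air. In room air it passed for none of 9 members and for 0.0185% of genes (3 genes), with 1 member, C5ar1, at an unadjusted p under 0.05 in limma (log2 0.28, 95% interval 0.02 to 0.55, adjusted p = 0.719). In hyperoxia 1 of 9 members passed, beside 5.47% of genes in either direction and 3.89% higher. C1qa averaged 88.2 ± 13.9 FPKM with ATG and 71.6 ± 9.68 with saline (n = 12; log2 0.29, SE 0.07, adjusted p = 0.0297), and this call was lost after quantile (adjusted p = 0.059) or median-ratio scaling (0.0631) and in 5 of 24 fits that left out 1 mouse (up to 0.0611). In the same mice 4 of 8 markers of alveolar macrophages were lower with ATG and 0 higher (median log2 -0.71), and of 10 of macrophages and monocytes Ms4a7 was higher (0.76) and Mrc1 lower (-0.43). Of all genes called there, 71% were higher with ATG, and 41.5% after median-ratio scaling. The interaction of ATG and hyperoxia passed for 1 of 9 members, C1qa (log2 0.42, adjusted p = 0.0494), beside 2.77% of genes in either direction and 1.56% higher, and in none of 8 alternatives (adjusted p 0.0509 to 0.101). In that interaction 6 of the 8 alveolar macrophage markers were lower and 0 higher (median log2 -0.94), and the part of these cells in the values of C1qa was not tested.

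C3 and Cfb in hyperoxia differed by strain once the injections were taken apart. C3H mice in hyperoxia had C3 at 231, 191 and 205 FPKM in males and 242, 222 and 201 in females with saline, and at 316, 300.0 and 310.2 and 267, 349 and 349 with ATG. C57B mice had 241, 126 and 177 and 232, 265 and 218 FPKM with saline, and 162, 147 and 134 and 183, 111 and 121 with ATG. In C3H every ATG mouse was above every saline mouse, whereas in C57B the sets overlapped and the ATG mice were on average lower. Cfb in C3H was 52.5, 30.6 and 43.2 FPKM in males and 56.6, 47.2 and 79.6 in females with saline, and 136, 85.5 and 102 and 133, 140.4 and 126 with ATG. In C57B it was 64.8, 30.2 and 39.5 and 95.7, 48.4 and 70.9 FPKM with saline, and 38.3, 33.8 and 43.5 and 44.4, 30.3 and 51.2 with ATG. Again the C3H sets did not overlap and the C57B sets did.

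The interaction of strain and ATG in hyperoxia was fitted after these group values had been seen. It passed for 2 of 9 members, beside 0.416% of 15860 genes in either direction and 0.328% with a larger effect in C3H. The ATG effect on Cfb was larger in C3H than in C57B by 1.69 (log2, SE 0.28, adjusted p = 0.0114) and that on C3 by 1.08 (log2, SE 0.19, adjusted p = 0.0142). Both calls held in all 8 alternatives (adjusted p 0.002 to 0.0246 for Cfb and 0.0132 to 0.0275 for C3) and in all 24 fits that left out 1 mouse (0.00426 to 0.0322 for Cfb and 0.00543 to 0.0323 for C3). In C3H, where 2.65% of genes passed and 1.6% rose, ATG raised Cfb 2.37-fold (121 ± 21.8 against 51.6 ± 16.4 FPKM, SD, n = 6; log2 1.24, adjusted p = 0.00274) and C3 1.46-fold (315 ± 31.1 against 215 ± 19.4 FPKM; log2 0.55, adjusted p = 0.0338). The call for C3 was kept in 5 of 8 alternatives (adjusted p up to 0.0711) and lost in 8 of 24 fits that left out 1 mouse (up to 0.0962). In the same comparison 7 of 8 markers of alveolar macrophages were lower with ATG (median log2 -1.26), 1 of 5 of recruited monocytes was higher, and 0 of 9 of neutrophils passed (median 0.62). In the interaction of strain and ATG 2 of the 8 alveolar macrophage markers passed, both with a lower ATG effect in C3H (median of the 8 log2 -1.16). Of 5 markers of type 1 cells Pdpn passed with a higher effect in C3H (log2 0.90, adjusted p = 0.0146), and 0 of 9 of neutrophils (median 1.80) and 0 of 5 of recruited monocytes (median 1.16) passed. The part of these cells in the changes of Cfb and C3 was not tested. In C57B, where 0.864% of genes passed, none of 9 members did and 6 had an unadjusted p under 0.05 in limma, with C3 at 143 ± 26.7 against 210 ± 50.5 FPKM (log2 -0.53, adjusted p = 0.0628) and Cfb at 40.2 ± 7.63 against 58.3 ± 23.8 (log2 -0.44, adjusted p = 0.229). The C1q chains did not pass this interaction, with estimates of 0.05 for C1qa, 0.03 for C1qb and 0.23 for C1qc.

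**Figure D3:**
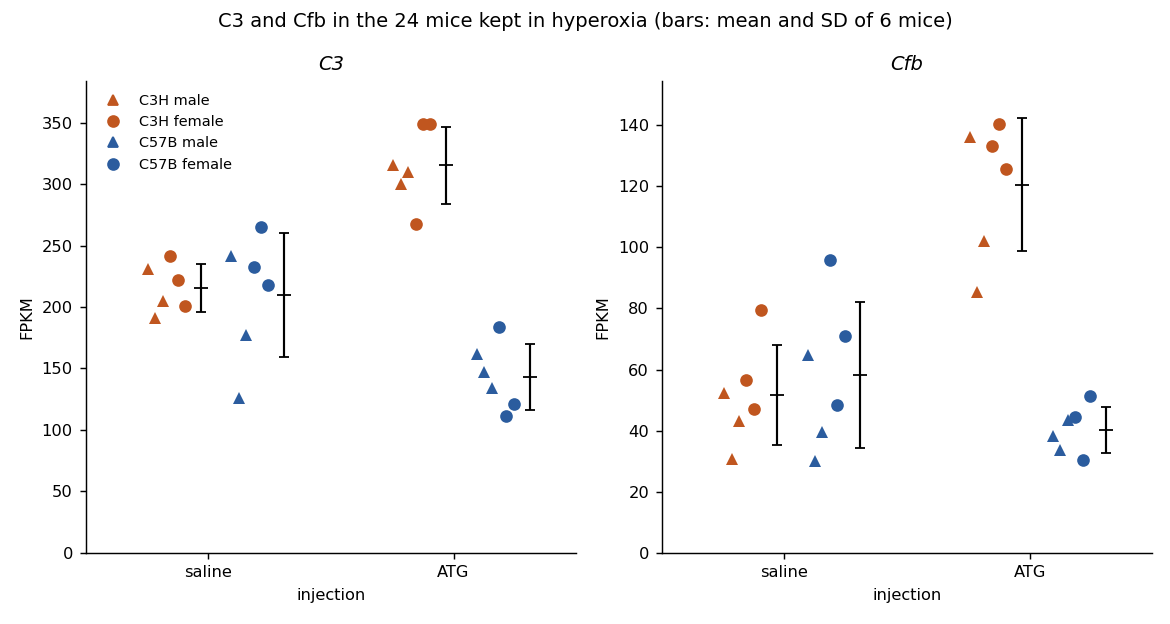
FPKM of C3 and Cfb in the 24 mice kept in hyperoxia, by injection (horizontal axis) and strain (colour), with a point per mouse, triangles for males and circles for females, and black bars for the mean and SD of 6 mice. C3H mice with ATG, at means of 315 for C3 and 121 for Cfb, lie above all C3H mice with saline, and C57B mice with ATG have means of 143 and 40.2.

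The rest of the complement system was taken from a list of 47 other symbols, of which 33 rows were tested in the saline mice. Hyperoxia raised 6 (18.2%) and lowered 11 (33.3%), with a median log2 change of -0.07, beside 31.8% of all genes higher and 28.3% lower and a median of 0.01. The largest decreases were in Vtn, vitronectin, an inhibitor of the terminal pathway (log2 -2.56), Hc, which encodes C5, the precursor of the C5ar1 ligand (-2.13), C6 of the membrane attack complex (-1.73) and Cd59a, which protects cells from that complex (-1.09). Hc went from a median of 80.4 to 30.1 FPKM in C3H and from 121 to 15.6 in C57B, while its receptor C5ar1 went from 4.31 to 3.35 in C3H and from 6.53 to 20.4 in C57B. C3ar1, the receptor for the C3a fragment (log2 1.17), and 1 of 2 rows for Itgam, the alpha chain of complement receptor 3 (1.03), were the largest increases, while a second row with the symbol Itgam gave 0.04. In ATG mice 9 rose (27.3%) and 10 fell (30.3%), beside 35.8% and 26% of all genes, with Vtn (log2 -2.33), Hc (-2.09), C6 (-1.52) and C3ar1 (1.53) again among the largest. The proteases C1ra and C1s1, which C1q carries, were the other complement genes that passed the interaction of strain and ATG in hyperoxia (log2 0.85 and 0.67), and both share sequence with copies (59.9% and 36.0% of their 30-base words).

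Between strains in saline mice in room air, 3 of 32 rows of the list were higher in C3H (9.38%) and 7 lower (21.9%), beside 3.92% and 7.87% of all genes. C4a (log2 -1.27), Hc (-0.56) and C5ar2, the second C5a receptor (-0.86), were lower, and Cd59a was higher (1.48). The symbol C1s2 stood on 2 rows that moved oppositely (2.82 and -1.74), and its sequence is shared with its copies. In the other 36 mice 12 of 34 were higher (35.3%) and 4 lower (11.8%), beside 21.6% and 19.7% of all genes. The interaction of strain and hyperoxia in saline mice was positive for 4 of 33 (12.1%, beside 8.71% of all genes), Cfi, which cleaves C3b and C4b (1.33), C6 (1.24), Cd55, which dissociates the C3 enzymes (1.05), and Itgax (0.68), while no member passed it. Cd55 was also the one list gene to rise with ATG in hyperoxia (0.50) and in the interaction of ATG and hyperoxia (0.63). Cfp and Vsig4, on the X chromosome, were listed at 0 in all mice, as were all X-linked genes.

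**Figure D4:**
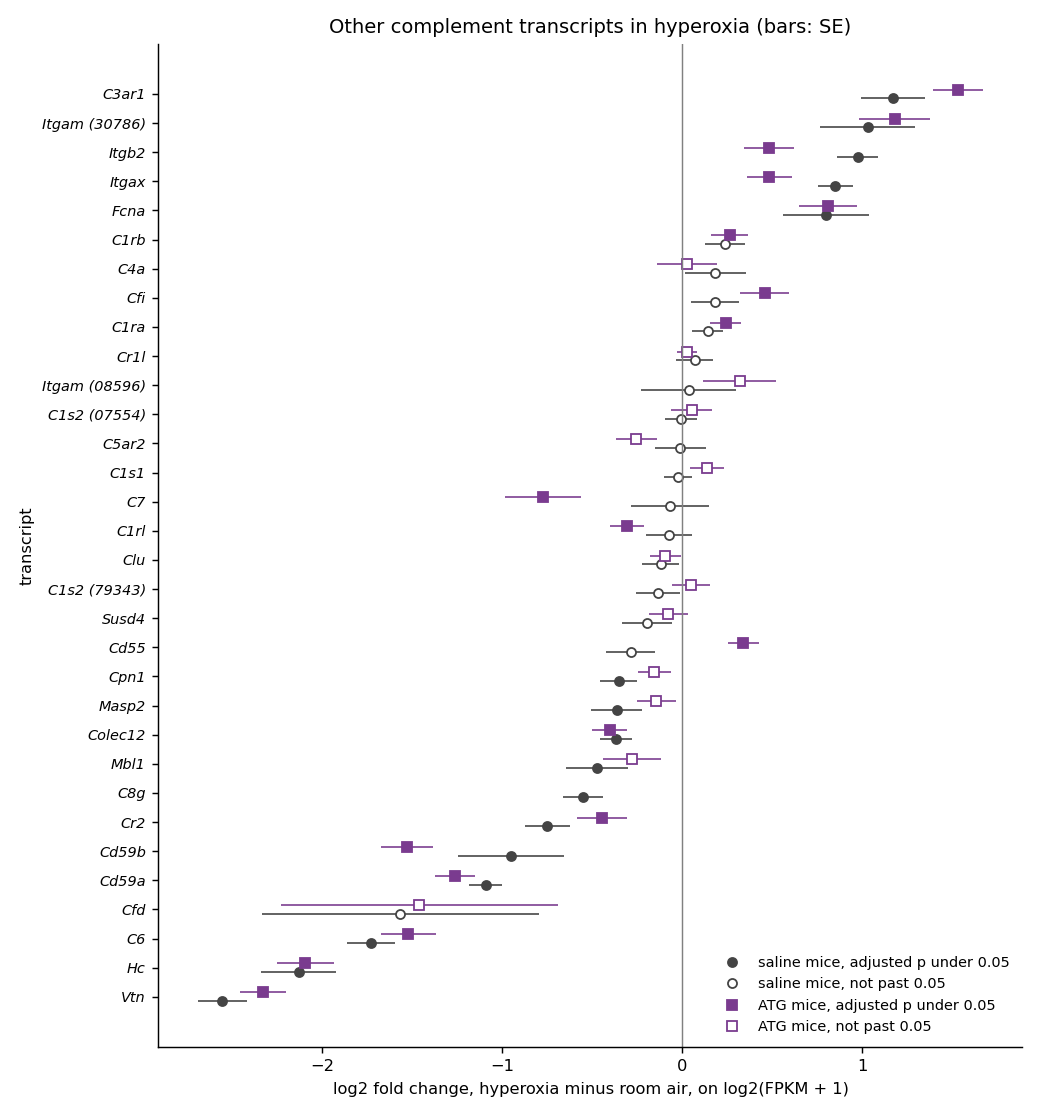
Log2 fold change from room air to hyperoxia, with SE bars, for complement transcripts outside the 9 members, in 24 saline mice (circles) and 24 ATG mice (squares). Filled symbols passed an adjusted p of 0.05, and Vtn and Hc lie farthest to the left in both sets of mice, at -2.56 and -2.13 in saline mice and -2.33 and -2.09 in ATG mice.

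Members varied together in patterns that differed once group means were removed. Pearson's r of log2(FPKM + 1) over the 48 mice was 0.926 for C1qb with C1qc, 0.863 for C1qa with C1qc and 0.781 for C1qa with C1qb, and 0.709, 0.829 and 0.694 after the mean of each of the 16 groups was subtracted. C3 and Cfb had 0.831 over all mice and 0.489 within groups. C2 with Cfb, its neighbour, had -0.02 over all mice and 0.443 within groups, and C2 with C3 had 0.300 and 0.778. These points share libraries, strains and treatments and are given as descriptions.

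The genes most like each member over the 48 mice were Psrc1 (r = 0.872) and Thyn1 (0.867) for C1qa, C1qc (0.926) and Gm15501 (0.911) for C1qb, and C1qb and Nup88 (0.880) for C1qc. For Cfb they were Saa3, an acute-phase serum amyloid A (r = 0.947), Gm26809 (0.912) and Nfkb2, a subunit of NF-kB (0.901), and for C3 they were Cfb, Gm26809 (0.812) and Slpi, a protease inhibitor of airway epithelium (0.784). C4b, whose mice fell into separate sets by strain, was closest to Rps18 (r = 0.977), Gm9493 (0.971) and Rpl26 (0.970). None of these was among its 3 closest genes within groups. Serping1 was closest to C1qtnf1 (0.803). C5ar1 lay closest to Srgn (r = 0.907), Trem1 (0.906) and Il1r2 (0.903). C2 lay closest to Msln (0.771) and Upk3b (0.767), both markers of mesothelium, the cell layer on the lung surface.

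Within groups the closest genes were C1s1 (0.746) and C1ra (0.702) after C1qc for C1qa, Tlr9 (0.724) for C1qb, and Ccl8 (0.687) after the other chains for C1qc. They were Upk3b (0.926), Sema3d (0.887) and Gpm6a (0.876) for C2, and Aebp1 (0.823) and Upk3b (0.788) for C3. Sbsn (0.712) and Aldh1a2 (0.699) stood first for Cfb, Tfeb (0.695) for C4b, Timp2 (0.870) for Serping1, and Cxcr2, a chemokine receptor of neutrophils (0.927), for C5ar1.

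Summed markers of several cell types varied with members between mice. The 3 mesothelium markers, of which Msln was the most abundant, had r = 0.850 with C2 over all mice and 0.906 within groups, 0.361 and 0.799 with C3, and 0.0759 and 0.601 with Cfb. Their mean sums per strain, injection and air ranged from 84.5 to 148.5 FPKM. The 9 neutrophil markers, led by S100a9, had r = 0.873 and 0.898 with C5ar1. C5ar1 also had r = -0.813 and -0.792 with the 5 markers of type 1 cells and 0.440 and 0.630 with the 5 of recruited monocytes, and C1qa had 0.635 and 0.666 with the 6 of fibroblasts. Over all mice C1qa had r = -0.827 with markers of red cells, -0.739 with type 2 cells, -0.69 with club cells and -0.67 with macrophages and monocytes. Within groups these values were -0.167, 0.305, -0.113 and 0.106. Of the 9 neutrophil markers, 8 rose with hyperoxia in saline mice, while within strain 2 rose in C3H and 6 in C57B. Their summed FPKM averaged 208 in room air and 1443 in hyperoxia in C3H, but 459 in hyperoxia without mouse 33, which had 6363. Of the 6 C3H mice in hyperoxia 4, at 183 to 225, lay within the range of room air (138 to 315). In C57B the sums averaged 488 and 2648 FPKM (167 to 4967 in hyperoxia). Of the 10 markers of macrophages and monocytes 7 rose and 3 fell while the C1q chains rose, and their sum, led by Lyz2, went from 4486 to 2927 FPKM in C3H and from 8259 to 1838 in C57B. The sum of 8 markers of alveolar macrophages, led by Chil3, went from 318 to 512 FPKM in C3H and from 510.2 to 1330.0 in C57B in saline mice. In ATG mice, where the C1q chains also rose, this sum went from 426 to 227 FPKM in C3H and from 686 to 1197 in C57B, and 5 of the 8 markers fell and 1 rose over both strains, with 5 lower and 0 higher in C3H. The part of these cell types in the complement changes was not tested.

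**Figure D5:**
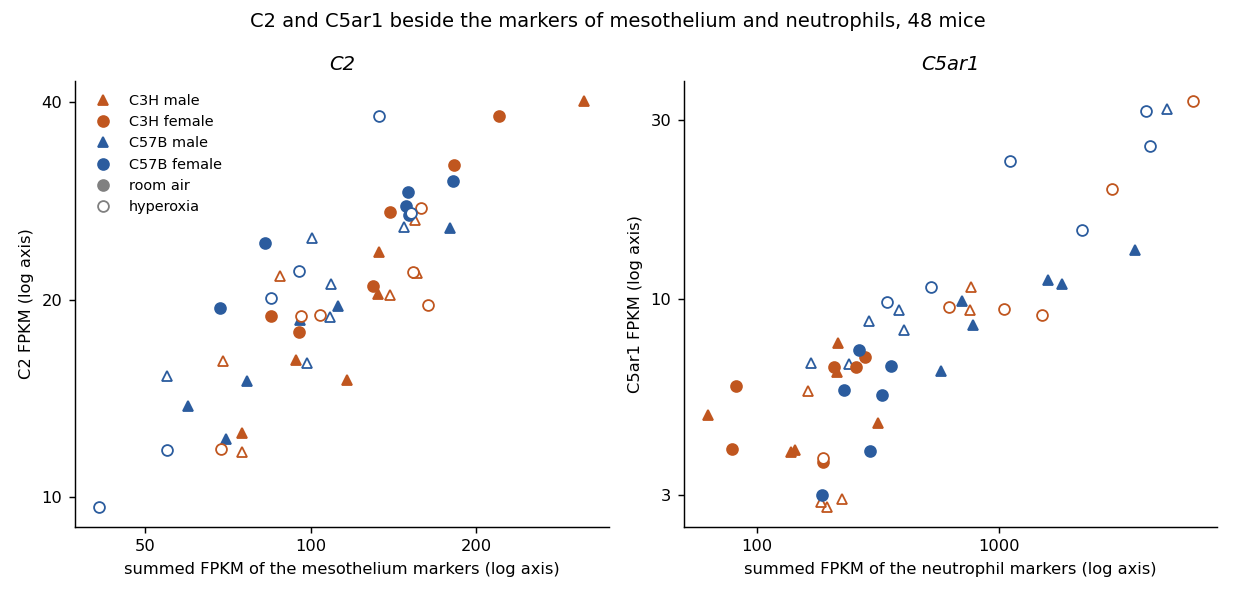
FPKM of C2 against the summed FPKM of the mesothelium markers and of C5ar1 against that of the neutrophil markers in 48 mice, all axes on a log scale, with strain by colour, triangles for males, circles for females, filled points for room air and open points for hyperoxia. Mice with more of the markers tend to have more of the transcript, at r = 0.850 and 0.873 over all 48 mice. After group means were subtracted, r was 0.906 and 0.898.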

How the data were processed

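Lung RNA of 48 mice was sequenced, and 1 table held FPKM per gene and mouse. The submitters' processing notes name GSNAP, SAMtools, Cufflinks and mm10, from which the authors made the deposited FPKM. Read counts were not used here, absolute depth is unknown, and FPKM summed to 510933 to 748290 per mouse (median 578563). Groups followed the labels, although the series text gives ATG to all mice. Akap5 was left out because 7 mice carried a failed value (999999999).

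Comparisons used limma 3.58.1 in R 4.3.3 on log2(FPKM + 1), with eBayes trend, genes of FPKM at least 1 in at least 3 mice, Benjamini-Hochberg adjustment over all genes tested, and group means of strain, sex, injection and air. Main effects averaged the remaining factors. Fold changes are on that log2 scale. Single values were tested with two-sided exact or 100000-resample permutation tests (scipy 1.17.1, Python 3.11.15), and the methods were tested on simulated data. P-values measure the spread between mice. Batches are not named in the labels.

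The named genes were the 9 members, up to 6 of the 47 other complement symbols with the largest change in each comparison, and the 3 genes most correlated with each member over mice and within groups, of which the leading ones are given, and 1 gene of the complement list is counted but otherwise not reported here. The members, the lists and the cell type markers were chosen with earlier results of these data known. Alternatives were pseudocount 0.1, other filters, quantile normalization, median-ratio scaling, no trend, all 48 mice in 1 fit, and leaving out mice. Sequences came from RefSeq promoters and the GENCODE M21 transcripts and annotation (GRCm38).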

Additional observations from a re-analysis of the deposited data

Results flagged for a closer look

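For each member, the 6 mice of each strain, injection and air were searched for a value whose gap to the nearest other mouse took up more than 0.625 of the range, a limit that chance passes in about 1 of 20 groups, and 8 of 72 groups held one. C1qa (64.9 FPKM) and C1qc (34.2) were high in mouse 29, a C3HF mouse with ATG in room air, where the other 5 mice had 31.7 to 41.5 and 16.0 to 20.0. In mouse 17, a C57BM mouse with ATG in room air, C3 (232 FPKM) and Cfb (38.7) were above the others at 119 to 149 and 15.4 to 19.5. Cfb was low in mouse 5, a C3HM mouse with ATG in room air (12.0 FPKM against 18.0 to 20.8). C5ar1 was high in hyperoxia in mouse 33 (C3HF, saline, 33.6 FPKM against 2.79 to 9.04), mouse 34 (C3HF, ATG, 19.7 against 5.67 to 10.8) and mouse 48 (C57BF, ATG, 23.3 against 6.70 to 10.8).

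Effects differed between groups by a test of the difference for C1qa, whose hyperoxia effect was larger by 0.42 with ATG than with saline (log2, limma adjusted p = 0.0494, passed in none of 8 alternatives and lost in 37 of 48 fits that left out 1 mouse), and for the ATG effect in hyperoxia, larger in C3H than in C57B by 1.08 for C3 (adjusted p = 0.0142) and by 1.69 for Cfb (adjusted p = 0.0114).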

How the results depend on the processing

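The lower C4b and C1qb in C3H and the rises of Cfb, C3 and the C1q chains in hyperoxia in saline mice passed in every alternative fit. C5ar1 in ATG mice lost its call with all 48 mice in 1 fit (adjusted p = 0.0526), where C3 between strains in room air passed (0.049). C2 in ATG mice (0.0637), C3 in saline C57B mice (0.0635) and C3 with ATG in C3H in hyperoxia (0.0566) were lost without a filter. C3 in saline C57B mice was also lost after quantile normalization (0.385). The causes were not tested. Members that did not pass changed sign in few fits. C1qa between strains was 0.00311 (log2) after median-ratio scaling. C2 in hyperoxia in saline mice was -0.026 after quantile normalization, and Serping1 was -0.22 there, -0.045 after median-ratio scaling and -0.054 without mice 1 and 3. Leaving out 1 mouse gave -0.37 to 0.032 for C2 between strains and -0.041 to 0.056 for Serping1 in hyperoxia.

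Counts of genes moved more. With all 48 mice in 1 fit they were 2982 in place of 1832 for strain, 1915 in place of 104 for sex, 748 in place of 0 for strain by sex, 2994 in place of 1880 for strain by hyperoxia, 306 in place of 6 for sex by hyperoxia and 234 in place of 66 for strain by ATG in hyperoxia. For sex, the milder filter gave 60, no filter 40, and leaving out mice 1 and 3 gave 30. For strain by sex, a pseudocount of 0.1 gave 5, the milder filter 2, no filter 2, no trend 2, and leaving out mice 1 and 3 gave 1. Without mouse 19, sex in the other 36 mice gave 1357 in place of 613 and sex by hyperoxia gave 1051 in place of 6, and with median-ratio scaling it gave 2. ATG in room air gave 5 in place of 3 without a filter and 5 without mice 1 and 3, and ATG by hyperoxia gave 313 in place of 470 without a filter.

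Leaving out 1 mouse gave 1306 (mouse 26) to 4021 (mouse 2) genes for strain, 20 (mouse 25) to 3640 (mouse 2) for sex, 0 to 2741 (mouse 2) for strain by sex, 398 (mouse 42) to 1357 (mouse 19) for sex in the other 36 mice, 1400 to 3242 (mouse 2) for strain by hyperoxia, 2 (mouse 32) to 1270 (mouse 2) for sex by hyperoxia, 3 to 32 (mouse 2) for ATG in room air, 443 (mouse 8) to 1096 for ATG in hyperoxia, 243 (mouse 42) to 1093 (mouse 2) for ATG by hyperoxia, and 37 (mouse 32) to 302 (mouse 33) for strain by ATG in hyperoxia. Within strain, ATG in hyperoxia gave 137 genes in C57B, 3 (mouse 19) to 545 (mouse 21) without 1 mouse and 3 to 457 in the alternatives, and 420 in C3H, 166 (mouse 32) to 861 (mouse 33) without 1 mouse. No paired analysis was possible because each mouse has its own number in the labels. ATG by hyperoxia already used all 48 mice, so that alternative was not run for it. Relative depth, read from the steps of low FPKM values, was only roughly known (0.772 to 1.24 of the median mouse).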

Other observations

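Other marker lists shifted with hyperoxia in the 24 saline mice (limma, adjusted p under 0.05). Of markers of type 2 cells, which make surfactant, 5 of 6 fell and 1 rose, 3 of 5 of type 1 cells fell, and 3 of 3 of club cells fell. Of 5 markers of recruited monocytes 3 rose and 1 fell, and of 8 of alveolar macrophages 5 rose and 3 fell. Fibroblast markers had 1 of 6 higher, endothelial markers 1 of 4 higher and 2 lower, and mesothelium markers 1 of 3 lower. Of 4 markers of heart muscle and 4 of red cells all fell (median log2 -2.22 and -4.03). Of 2 hepatocyte markers tested, 1 fell. With saline and ATG mice pooled, the FPKM share of hemoglobin genes had a median of 1.93% in room air and 0.117% in hyperoxia.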
